A study of Homo sapiens with 12 samples.

Results

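The genes described here are regulators and targets of the unfolded-protein response and of the integrated stress response that adjoins it. Of 10 genes set by symbol (XBP1, ATF4, DDIT3, ATF6, ERN1, TRIB3, CHAC1, ASNS, CEBPB and HERPUD1), 6 were found by gene ID among the 5759 genes of the authors' deposited table: XBP1, DDIT3, TRIB3, CHAC1, ASNS and HERPUD1. ATF4, ATF6, ERN1 and CEBPB are not among those rows and were not analysed here. RNA was sequenced from MOLT4, an established human T lymphoblast leukaemia line labelled as wild type, in 4 groups of 3 samples. The groups were 6 h of DMSO vehicle, 1 h of compound 955 (0.1 µM), 6 h of compound 955 (0.1 µM), and 6 h of SNS-032 (1 µM). SNS-032 is an inhibitor of cyclin-dependent kinases that include CDK9, the kinase that releases paused RNA polymerase II. Compound 955 is, by the series' title and design, a piperlongumine conjugate that carries SNS-032 as its warhead, and the study asked how the conjugate compares with that warhead. The doses differ 10-fold, and the vehicle was collected at 6 h alone. Treatment and time in culture therefore cannot be told apart in the 1 h comparison or between 1 h and 6 h.

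Unfolded proteins in the endoplasmic reticulum (ER) are sensed by 3 membrane proteins. ERN1 (IRE1 alpha) cuts a short stretch out of the XBP1 mRNA so that it encodes an active transcription factor. ATF6 is cleaved in the Golgi to release another, and the kinase PERK (EIF2AK3) phosphorylates the translation factor eIF2 alpha. That phosphorylation, which other kinases also carry out during amino acid shortage, favours translation of ATF4. ATF4 switches on ASNS, TRIB3, CHAC1 and other genes, and CEBPB and DDIT3 (CHOP) are among its partners. XBP1 and ATF6 switch on ER chaperones and degradation factors such as HERPUD1. Lymphoid cells that secrete antibody depend on XBP1, and asparagine synthetase (ASNS) is known in acute lymphoblastic leukaemia for its bearing on asparaginase treatment.

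The stretch that ERN1 removes from XBP1 is shown because a value per gene adds up mRNA with and without it. It lies in the coding sequence within chr22:28796102-28796167 (GRCh38, minus strand), and the capitals mark the 26 bases that are exon in the annotated transcript XBP1-201 and absent from XBP1-202 (GENCODE 29, gap placed as annotated).
XBP1 mRNA: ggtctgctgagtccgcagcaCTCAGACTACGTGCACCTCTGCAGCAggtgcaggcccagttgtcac

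Promoter stretches are shown for the 4 analysed genes whose RefSeq promoter window (GRCh38.p14, 250 bases before to 50 bases after an annotated start) held one of the response elements searched on both strands. Each is 100 bases long and lies before the start site, and capitals mark the element. XBP1 (chr22:28800570-28800669, minus strand) holds the ER stress response element, which is CCAAT, 9 bases and CCACG. ASNS (chr7:97872409-97872508, minus strand) and CHAC1 (chr15:40953242-40953341, plus strand) hold the C/EBP-ATF response element TGATGNAA, in CHAC1 on the reverse strand. HERPUD1 (chr16:56931946-56932045, plus strand) holds the latter on the reverse strand and, further on, the ER stress response element II (ATTGG, 1 base, CCACG), a motif that was added after the others had been searched.
XBP1 promoter: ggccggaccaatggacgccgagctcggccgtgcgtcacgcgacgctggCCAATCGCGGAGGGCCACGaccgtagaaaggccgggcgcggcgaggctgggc
HERPUD1 promoter: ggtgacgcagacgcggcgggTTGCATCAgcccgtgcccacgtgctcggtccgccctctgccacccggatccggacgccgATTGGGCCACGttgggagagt
ASNS promoter: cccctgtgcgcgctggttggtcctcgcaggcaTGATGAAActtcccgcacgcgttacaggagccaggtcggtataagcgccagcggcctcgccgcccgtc
CHAC1 promoter: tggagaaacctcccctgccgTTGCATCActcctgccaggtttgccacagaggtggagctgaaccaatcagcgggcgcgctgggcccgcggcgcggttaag

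Among 35116 RefSeq promoter windows of that length, the ER stress response element occurred in 0.0769%, element II in 0.0541% and the C/EBP-ATF element in 3.62%. The unfolded protein response element TGACGTGG occurred in 0.729% of all windows and in 0 of the 17 windows of the 10 genes. All 10 genes had at least 1 window. The windows of DDIT3 and TRIB3 held none of the 4 elements, which says only that these letters are not in these windows.

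Values for single samples were not used here, so each gene is described by its change from DMSO and not by a level per sample. A change was past the threshold when the authors' deposited table gave it a log2 fold change of 1 or more in either direction and a false discovery rate (FDR) below 0.05. All listed genes had an FDR under 0.05 in at least 1 of the 3 comparisons, so a gene had to change somewhere to be seen, and counts of changed genes are no support for the group. Standard errors (SE) and 95% intervals are derived from the log2 fold change, F statistic and p-value of each gene. The depth of the samples is unknown. The labels do not say that the samples of a group were separate cultures, and the p-values then measure only the spread between these samples. Of 18 markers fixed for T lymphoblasts, 8 were listed, at average levels from 3.74 to 8.06 log2 CPM (CPM is a count relative to the library size, here averaged over all samples). Of other cell types, 0 of 5 myeloid markers and 1 of 4 stromal markers (COL1A1, 3.18 log2 CPM) were listed. Under the authors' scaling COL1A1 was higher past the threshold after 6 h of either compound, which mitochondrial scaling turned negative, and the part of other cells in the results was not tested.

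XBP1 fell at 6 h with both compounds to a few percent of its DMSO level. XBP1 (gene ID 7494), the transcription factor that ERN1 activates, had a log2 fold change of -4.82 after 6 h of 955 (FDR 6e-06) and of -5.06 after SNS-032 (FDR 4.31e-06) in the authors' deposited table. These are 3.55% and 2.99% of its DMSO level. The 95% intervals ran from -5.81 to -3.82 and from -6.08 to -4.05 (log2). At 1 h of 955 its log2 fold change was -0.81 (FDR 0.412) in the authors' deposited table, with an interval from -1.63 to 0.01. By size of fall at 6 h it was the 7th lowest of the 5759 genes with 955 and the 19th lowest with SNS-032. Reads of the cut and the uncut XBP1 mRNA are in the same value, so the share of each form was not measured. GENCODE lists 1 processed pseudogene of it, XBP1P1.

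HERPUD1 (9709), an ER membrane protein that assembles the machinery for degrading misfolded proteins, was lower at 6 h as well. Its log2 fold change in the authors' deposited table was -2.40 after 955 (FDR 0.0381) and -2.84 after SNS-032 (FDR 0.0185), or 19.0% and 13.9% of the DMSO level. At 1 h of 955 it was at -1.98, with an FDR of 0.245 in the authors' deposited table. The intervals were wide, from -4.06 to -0.73 for 955 at 6 h and from -4.55 to -1.14 for SNS-032. Its SE of 0.73 for 955 at 6 h was above that of 99.9% of the 1008 genes within 0.5 log2 CPM of its level.

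DDIT3 (1649), which encodes the transcription factor CHOP, fell with both compounds at 6 h. Its log2 fold change was -2.74 with 955 (FDR 0.00145) and -1.78 with SNS-032 (FDR 0.0215) in the authors' deposited table. At 1 h of 955 the authors' deposited table gives -1.81 with an FDR of 0.0853, not past the threshold. In levels, 14.9% of the DMSO value remained after 6 h of 955 and 29.1% after SNS-032. Exons of DDIT3 share 355 bases with the gene of methionyl-tRNA synthetase (MARS in GENCODE 29) and 58 bases with MBD6, both on the opposite strand, and 105 bases with the protein-coding AC022506.1 on the same strand. The use of strand in counting is not given in the sources used here. Reads of DDIT3 and of these partners may therefore not be separable.

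CHAC1, TRIB3 and ASNS are targets of ATF4, and they passed the threshold in different comparisons. Their log2 fold changes were not tested against each other, and at 6 h those of CHAC1 and TRIB3 were close. CHAC1 (79094), an enzyme that degrades glutathione, was the sole analysed gene past the threshold at 1 h, with a log2 fold change of -3.76 (FDR 0.0096) in the authors' deposited table. That was the 2nd lowest value of the 5759 genes at 1 h. At 6 h it had -0.91 with 955 (FDR 0.472) and -1.23 with SNS-032 (FDR 0.278) in the authors' deposited table, with intervals from -2.43 to 0.61 and from -2.78 to 0.31. CHAC1 also had the lowest average level of the 6, at 0.26 log2 CPM in the authors' deposited table, a level that 1.93% of the listed genes do not exceed. A fold change at such a level depends on how the authors' model treated low counts.

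TRIB3 (57761), a pseudokinase induced by ATF4 and DDIT3, was past the threshold with SNS-032 alone. Its log2 fold change in the authors' deposited table was -1.30 with SNS-032 (FDR 0.0312), -0.93 with 955 at 6 h (FDR 0.13) and -0.76 with 955 at 1 h (FDR 0.545). The difference between the compounds is tested further on and did not pass. ASNS (440), which makes asparagine, was the sole analysed gene that rose. In the authors' deposited table its log2 fold change was 2.05 with 955 at 6 h (FDR 8.8e-05) and 2.23 with SNS-032 (FDR 4.03e-05), or 414% and 470% of the DMSO level. At 1 h it had 0.75 with an FDR of 0.236 in the authors' deposited table. The authors' scaling gave this rise and the other one run did not: with mitochondrial mRNA as the yardstick, described next, the values were -0.020 and -0.11. GENCODE lists 4 pseudogenes of ASNS and a transcript of another gene, AC079781.5, on the same strand that shares 1985 exon bases with it, so part of its reads may be assigned elsewhere.

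**Figure D1:**
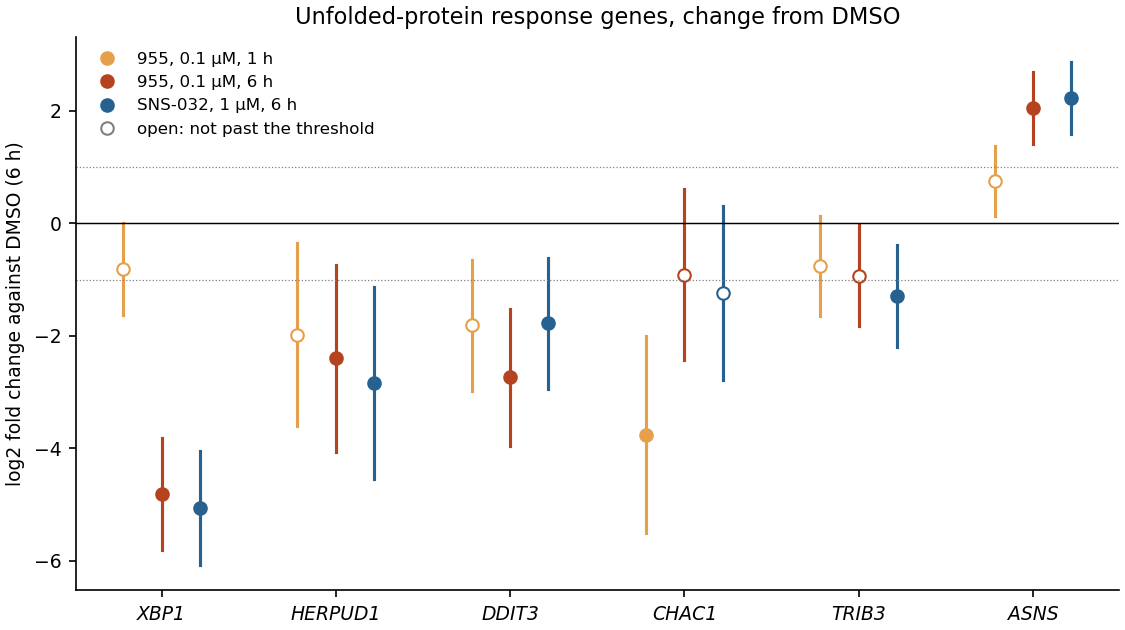
Log2 fold change against DMSO (vertical axis) of the 6 analysed genes after 1 h and 6 h of 955 and after SNS-032, under the authors' scaling. Points are the authors' values, bars are derived 95% intervals, filled points are past the threshold and dotted lines mark a log2 fold change of 1 in either direction. XBP1 lies at -4.82 and -5.06 at 6 h, CHAC1 is lowest at 1 h (-3.76), and ASNS lies above 0, a rise that mitochondrial scaling removes.

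At 6 h of 955, 3 of the 6 genes were lower past the threshold (XBP1, HERPUD1 and DDIT3), 1 was higher (ASNS) and 2 did not pass. Of all listed genes, 50.1% were lower and 35.2% higher in that comparison. With SNS-032, 4 were lower (TRIB3 in addition), 1 was higher and 1 did not pass, against 52.5% lower and 37.8% higher among all listed genes. At 1 h, 1 was lower and 0 were higher, against 7.71% and 0.729%. The median log2 fold change of the 6 genes was -1.31 at 1 h, and at 6 h -1.67 for 955 and -1.54 for SNS-032. Over all listed genes the medians were -0.05, -1.03 and -1.07. The 3 comparisons share the same DMSO samples. By average level per kilobase of merged exons (log2 CPM per kb), the values were 2.87 for XBP1, 2.82 for ASNS, 1.60 for DDIT3, 1.59 for HERPUD1, 1.24 for TRIB3 and -0.78 for CHAC1. These levels are averages over all 4 groups, and XBP1 fell to 3.55% and ASNS rose to 414% of DMSO after 6 h of 955 under the authors' scaling, so the order is not one within any group.

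The values of the 6 genes depend on the scaling. Mitochondrial mRNAs are made by another RNA polymerase, and all 13 had higher relative levels after treatment. Their median log2 fold change was 0.67 at 1 h, and at 6 h 2.07 for 955 and 2.35 for SNS-032. With these medians subtracted from every gene and p-values recomputed over the listed genes, ASNS was at 0.07, -0.020 and -0.11 in the same order (adjusted p 0.829, 0.952 and 0.726). The other 5 genes were then lower past the threshold in all 3 comparisons, but so were 30.7% of all listed genes at 1 h, and at 6 h 66.4% for 955 and 72.1% for SNS-032. XBP1 was at -1.49 at 1 h (adjusted p 0.00487), and at 6 h it was at -6.89 for 955 and -7.41 for SNS-032. TRIB3 came to -1.43, -3.00 and -3.64, and CHAC1 to -4.43, -2.99 and -3.58. HERPUD1 was at -2.66, -4.47 and -5.19, and DDIT3 at -2.49, -4.81 and -4.13. Which scaling is nearer to RNA per cell was not tested.

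**Figure D2:**
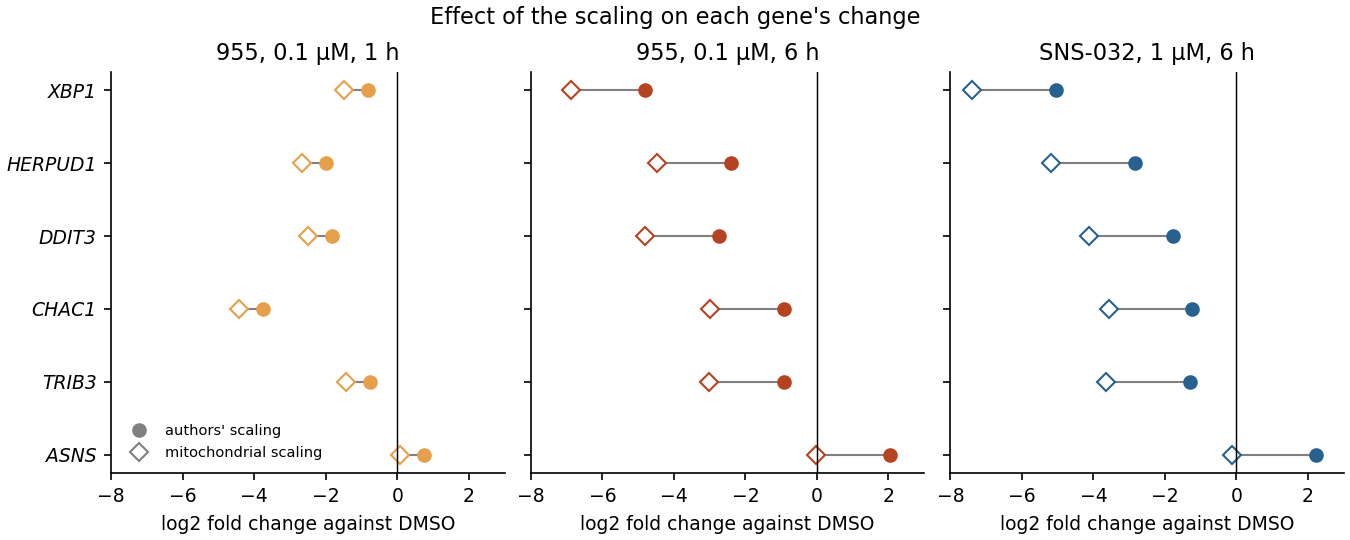
Log2 fold change against DMSO (horizontal axis) of each gene under the authors' scaling (circles) and after subtracting the median of the 13 mitochondrially encoded mRNAs (diamonds), 1 panel per comparison. At 6 h ASNS moves from 2.05 to -0.020 with 955 and from 2.23 to -0.11 with SNS-032, while the other 5 genes move further below 0.

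The course of 955 between 1 h and 6 h split the genes. The difference of the log2 fold changes (6 h minus 1 h) was tested with the SE derived from both comparisons, a t distribution and Benjamini-Hochberg adjustment over the 5759 listed genes. Both use the DMSO samples of 6 h, so time under treatment and time in culture cannot be told apart in this difference. XBP1 was lower at 6 h than at 1 h by a log2 difference of -4.00 (95% interval -4.91 to -3.09, adjusted p 4.08e-06). ASNS was higher at 6 h under the authors' scaling, by 1.30 (0.68 to 1.93, adjusted p 0.00104), and was at -0.094 after mitochondrial scaling. CHAC1 was higher at 6 h than at 1 h, by 2.84 (1.21 to 4.48, adjusted p 0.00246), and by 1.45 after mitochondrial scaling, where it did not pass (adjusted p 0.102). These are 3 of the 6 genes, against 62.7% of all listed genes past the same threshold. HERPUD1 (-0.41, interval -2.06 to 1.23), DDIT3 (-0.93, -2.12 to 0.26) and TRIB3 (-0.17, -1.07 to 0.72) did not pass. After mitochondrial scaling the 3 differences were -1.81, -2.33 and -1.57 and all passed (adjusted p 0.0468, 0.00143 and 0.00316), as did 61.6% of all listed genes under that scaling.

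No difference between 955 and SNS-032 at 6 h passed for these genes. Of the 6 genes 0 were past the threshold in the derived contrast and 0 had an unadjusted p under 0.05, against 1.11% of all listed genes past the threshold. The compounds were given at 0.1 µM and 1 µM, so a difference or its absence is not one of structure alone. DDIT3 had the largest difference (955 minus SNS-032) at -0.96, with a 95% interval from -2.16 to 0.24 and an adjusted p of 0.462. XBP1 differed by 0.25 (-0.76 to 1.25), TRIB3 by 0.36 (-0.54 to 1.26) and ASNS by -0.18 (-0.82 to 0.45). For HERPUD1 the difference was 0.45 (-1.24 to 2.13) and for CHAC1 0.32 (-1.21 to 1.85). The intervals of HERPUD1 and CHAC1 hold differences of more than 1 log2 unit in either direction, and those of XBP1, TRIB3 and DDIT3 in 1 direction. The interval of ASNS alone stays within 1 log2 unit.

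**Figure D3:**
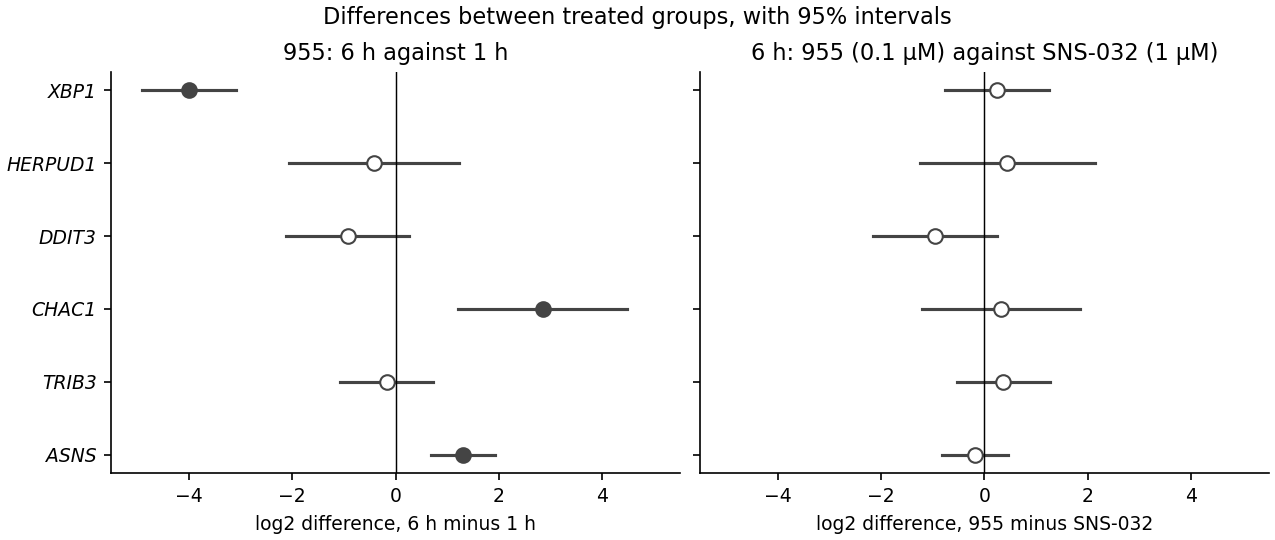
Log2 difference between treated groups (horizontal axis) for 955 at 6 h against 1 h (left) and for 955 against SNS-032 at 6 h (right), under the authors' scaling. Bars are derived 95% intervals and filled points are past the threshold: XBP1 (-4.00), CHAC1 (2.84) and ASNS (1.30) on the left, of which CHAC1 and ASNS do not pass after mitochondrial scaling, and none on the right.

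The log2 fold changes of the 6 genes had larger SEs than those of most listed genes. For 955 at 6 h the SE of the log2 fold change was 0.29 for ASNS, 0.42 for TRIB3, 0.45 for XBP1, 0.57 for DDIT3, and 0.73 for both HERPUD1 and CHAC1. The median over all listed genes was 0.24. Against genes within 0.5 log2 CPM of its own level, each had an SE above that of most, from 78.8% of 316 genes for CHAC1 to 99.9% for HERPUD1. The share was 97.3% for XBP1, 93.9% for DDIT3, 92.0% for ASNS and 91.6% for TRIB3. The denominator degrees of freedom, solved from F and p, were under 15 in 5 of the 6 genes and in 11.7% of all listed genes, and 23.3 was the most common value. HERPUD1 had 8.37 and XBP1 had 10.5. Low values were not confined to the 6 genes. Over the 51 pathway genes described below they ran from 8.27 (STC2) to 23.3.

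**Figure D4:**
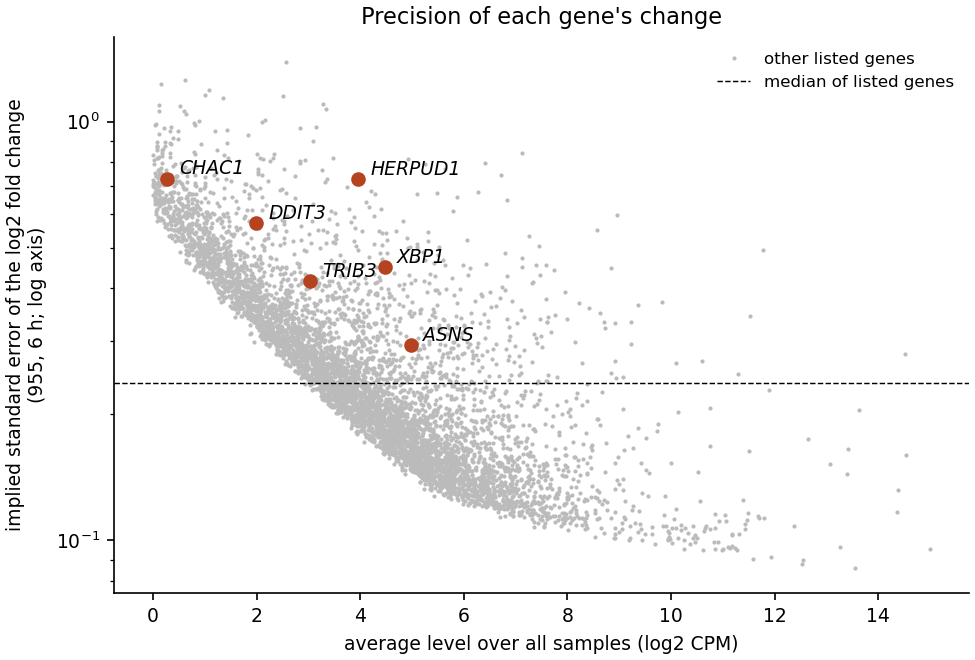
Derived SE of the log2 fold change for 955 at 6 h (vertical axis, log scale) against the average level over all samples (horizontal axis, log2 CPM) for the 5759 listed genes. The 6 labelled genes lie above the dashed median of 0.24, and HERPUD1 lies above 99.9% of the genes near its level.

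The wider pathway was described with 7 lists of other genes, 127 in all, of which 51 were listed. With 955 at 6 h, 31 of the 51 were lower and 16 higher past the threshold, and with SNS-032 32 were lower and 16 higher. Of all listed genes 50.1% were lower and 35.2% higher with 955, and 52.5% and 37.8% with SNS-032, and these shares are the background for each list below. The median log2 fold change of the 51 was -1.19 with 955 and -1.16 with SNS-032, near those of all listed genes. Of the 16 higher with 955, 12 had a negative value after mitochondrial scaling and 1, VEGFA, stayed past the threshold. The lists and the 6 genes were chosen with earlier results of these data known.

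Of the 12 listed ER chaperones and folding enzymes (of 21), 9 were lower with either compound and 3 higher under the authors' scaling, against a background of 50.1% and 52.5% lower. HSPA5 (3309), the chaperone BiP that holds the sensors inactive, had -3.90 with 955 (FDR 0.000307) and -4.95 with SNS-032 (FDR 8.42e-05) in the authors' deposited table. SDF2L1 (23753), a cofactor of BiP, had -3.16 (FDR 2.41e-05) and -4.09 (FDR 3.2e-06) in the authors' deposited table. FKBP14, a prolyl isomerase, and P4HB, a protein disulfide isomerase, were at 1.23 and 1.06 with 955 in the authors' deposited table, whereas mitochondrial scaling gave -0.84 and -1.01. DNAJB9, a BiP cochaperone, was the 1 gene of the 51 past the threshold between the compounds, against 1.11% of all listed genes. It is named after its values were seen. Its log2 fold change in the authors' deposited table was -2.10 with 955 and -3.93 with SNS-032, and the derived difference was 1.83 (SE 0.39, adjusted p 0.0121).

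Genes of ER-associated degradation, the removal of misfolded proteins, followed with 7 of 9 listed (of 20) lower and 2 higher with 955 under the authors' scaling. SEL1L, a subunit of the ubiquitin ligase complex, had -2.00 (FDR 1.64e-09) and EDEM2, which trims mannose from misfolded glycoproteins, -1.55 (FDR 4.69e-08) with 955 in the authors' deposited table. MARCHF6, an ER ubiquitin ligase, and EDEM1 were at 1.21 and 1.19 in the authors' deposited table, but at -0.86 and -0.89 after mitochondrial scaling. In the translocation and secretory list, 5 of 7 listed (of 22) were lower with either compound and 2 higher under the authors' scaling. SRPRB, which docks ribosomes at the ER, had -3.12 with 955 (FDR 9.03e-10) and SEC11C, a signal peptidase subunit, -1.42 (FDR 2.89e-05) in the authors' deposited table. SEC61G, of the translocon, and SSR4, beside it, were at 1.41 and 1.01 with 955 in the authors' deposited table, whereas mitochondrial scaling gave -0.67 and -1.06.

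In the list of sensors and eIF2 alpha control, 6 of 7 listed (of 18) were lower with either compound and 0 higher under the authors' scaling. Of all listed genes 50.1% and 52.5% were lower. The 6 were EIF2S1, EIF2B2, EIF2B3, EIF2B4, MBTPS2 and RTCB. EIF2AK3 (PERK), the sole sensor among the 7, was not past the threshold at 6 h. The authors' deposited table gives it -0.48 for 955 (FDR 0.123) and -0.09 for SNS-032. After mitochondrial scaling EIF2AK3 was at -2.55 and -2.44. EIF2B2, a subunit of the exchange factor that phosphorylated eIF2 alpha inhibits, had -2.84 with 955 (FDR 4.69e-11) in the authors' deposited table. RTCB, the ligase that joins the cut XBP1 mRNA, had -2.68 (FDR 5.12e-11) in the same comparison of the authors' deposited table. All 3 listed aminoacyl-tRNA synthetases of the ATF4 programme (of 13) were lower with either compound, with TARS1 at -1.62 (FDR 0.0294) and WARS1 at -1.19 (FDR 0.000421) for 955 in the authors' deposited table.

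Of the 3 lists that hold ATF4 targets, the synthetases had 0 genes higher, and the other two follow, against 35.2% of all listed genes higher with 955. In amino acid metabolism and transport, 5 of 8 listed (of 19) were higher and 1 lower with 955 under the authors' scaling, and 4 of the 5 were negative after mitochondrial scaling. CBS, which makes cystathionine from homocysteine, had 2.45 (FDR 8.13e-07) and SLC7A11, the cystine transporter, 1.73 (FDR 0.00471) with 955 in the authors' deposited table, and 0.38 and -0.34 after mitochondrial scaling. CBS has a near-identical annotated copy, CBSL, so its value is uncertain. SLC1A5, a glutamine transporter, had -1.60 (FDR 0.0135) with 955 in the authors' deposited table. Among other stress targets, 4 of 5 listed (of 14) were higher with 955 under the authors' scaling, and 1 of these 4 turned negative after mitochondrial scaling. STC2, a secreted glycoprotein, had 3.92 (FDR 0.0269) and VEGFA, the angiogenic growth factor, 3.23 (FDR 0.000445) in the authors' deposited table. The interval of STC2 with 955 was wide, from 1.41 to 6.44, with an SE of 1.10. After mitochondrial scaling STC2 was at 1.85 (adjusted p 0.15) and VEGFA at 1.16 (adjusted p 0.0395) with 955, and at 1.27 and 0.89 with SNS-032.

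At 1 h of 955, 4 of the 51 pathway genes were past the threshold, 3 lower and 1 higher, against 7.71% lower and 0.729% higher among all listed genes. They are named after their values were seen. SLC38A2, an amino acid transporter, had -1.77 (FDR 2.09e-05), DNAJB9 -1.78 (FDR 0.00344) and EIF2AK3, the sensor kinase PERK, -1.04 (FDR 0.00492) in the authors' deposited table. CBS was higher at 1 h, at 1.17 (FDR 0.0147) in the authors' deposited table, but at 0.49 and not past the threshold (adjusted p 0.112) with mitochondrial scaling. At 6 h EIF2AK3 and SLC38A2 were at -0.48 (FDR 0.123) and -0.92 (FDR 0.000626) with 955 in the authors' deposited table, and neither was past the threshold.

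**Figure D5:**
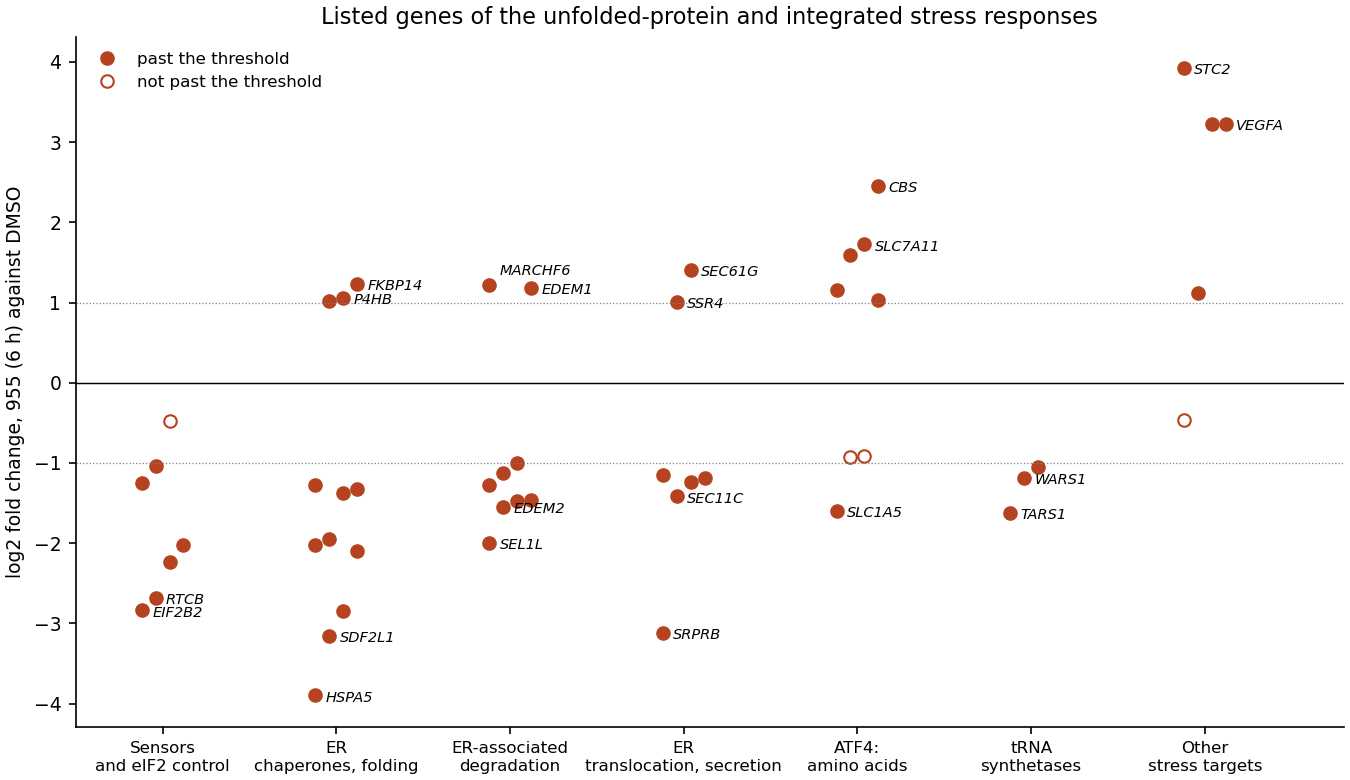
Log2 fold change of 955 at 6 h against DMSO (vertical axis) for the 51 listed pathway genes under the authors' scaling, 1 point per gene and 1 column per list. Filled points are past the threshold: 9 of 12 chaperone genes are lower, and 5 of 8 amino acid genes and 4 of 5 other stress targets are higher. Of these higher genes 4 and 1 are negative after mitochondrial scaling. Among all listed genes, 50.1% are lower and 35.2% higher in this comparison.

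By Euclidean distance over the 3 log2 fold changes, the genes above the median level with patterns nearest to XBP1 were MPV17L2 (distance 0.37), KPNA2 (0.85) and HSPA8 (0.89). MPV17L2, a mitochondrial inner membrane protein, had -0.49, -4.65 and -5.07 with 955 at 1 h, 955 at 6 h and SNS-032 in the authors' deposited table. KPNA2, a nuclear import adaptor, had -0.27, -4.21 and -4.84 there, and HSPA8, a cytosolic chaperone, -0.11, -4.29 and -4.98 in the authors' deposited table. The distance covers 3 comparisons that share their controls. The same search was not made for ATF4, which was not analysed here.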

How the data were processed

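Total RNA of 12 MOLT4 samples was made into libraries with an mRNA kit, per the labels' protocols. The submitters' processing notes name hg38 and DESeq2 without a role, and the aligner, counter and annotation are not given in the sources used here. The 1 file holds 3 comparisons with DMSO. Per the file headers, the authors deposited a log fold change and an average log CPM, both read as log2 because every listed gene reached an absolute change of 1.00 in some comparison. The authors also deposited an F statistic, a score of their test, with its p-value and FDR. Symbols came from the RefSeq table of GRCh38.p14 (5727 of 5759 gene IDs matched), gene models from GENCODE 29.

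The members and gene lists were chosen with earlier results of these data known. The implied SE is the absolute log2 fold change over the root of F, and the denominator degrees of freedom were solved from F and p. A contrast of treated groups used the root mean square of both implied SEs, a t distribution and Benjamini-Hochberg adjustment over the listed genes. It was tested on simulated data in which 200 of 5759 genes differed. These had the same dispersion (extra spread between samples) for every gene and far higher degrees of freedom than here. The simulation therefore does not show how the contrast performs on these data. Python 3.11.15 and SciPy 1.17.1 were used. Named genes were the members, the 2 largest rises and falls past the threshold of each list with 955 at 6 h, and the 3 genes nearest to XBP1. Alternatives were the fold-change bound, a level filter, mitochondrial scaling and other standard errors. One further marker list is not reported here.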

Additional observations from a re-analysis of the deposited data

Results flagged for a closer look

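The change from DMSO differed between 1 h and 6 h of 955 in XBP1, CHAC1 and ASNS, by the derived test with Benjamini-Hochberg adjustment. Their log2 differences (6 h minus 1 h) were -4.00, 2.84 and 1.30. Time under treatment and time in culture cannot be told apart in these differences. Of all listed genes, 62.7% were past the same threshold. CHAC1 rests on the lowest average level of the 6 genes, 0.26 log2 CPM. Both CHAC1 and ASNS rest on the authors' scaling, and neither passed after mitochondrial scaling.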

How the results depend on the processing

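No paired analysis was possible because the deposited table holds comparisons and not values per sample; for the same reason leaving out replicates, other count tools and count filters were not run. Restricting the genes to those above the median average level left 2 of the 6 genes past the threshold with 955 at 6 h (4 without the filter), 2 with SNS-032 (5) and 0 at 1 h (1), because DDIT3, HERPUD1, TRIB3 and CHAC1 lie below it. For the 51 pathway genes, that filter left 2 of 4 at 1 h. A bound of 1.5 on the absolute log2 fold change left 21 pathway genes of 47 with 955 at 6 h, 24 of 48 with SNS-032 and 2 of 4 at 1 h. The share of all listed genes left by this bound or by the level filter was not computed, so these losses have no background beside them. Mitochondrial scaling, whose adjustment covers the listed genes alone, raised the counts at 1 h from 1 to 5 of the 6 genes and from 4 to 12 pathway genes, with 30.7% of all listed genes lower past the threshold under that scaling. It turned ASNS to -0.020 with 955 at 6 h, to -0.11 with SNS-032 and to -0.094 for 955 at 6 h against 1 h. With an upper limit of the standard error, which takes no account of the common DMSO samples, XBP1, CHAC1 and ASNS still differed between 6 h and 1 h (adjusted p 0.000121, 0.0274 and 0.0123). Over the alternatives, the adjusted p for that difference ran from 1.86e-07 to 0.000121 for XBP1, and reached 0.102 for CHAC1 and 0.781 for ASNS, both after mitochondrial scaling. No alternative made any of the 6 genes differ between 955 and SNS-032. Only mitochondrial scaling could have done so, and its lowest adjusted p was 0.36 (TRIB3). The other standard errors are never smaller than the main one, and dropping the bound leaves the adjusted p as it was. The depth is unknown, and CHAC1, with the lowest average level, had the least precise value at 1 h (SE 0.84).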
